A study of Homo sapiens with 12 samples.

Results

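Among the RNA loci where dSpCas9 was enriched over both size-matched inputs, 1052 had no peak over either empty vector control and are called EV-negative loci here. They were selected on the deposited peak lists themselves. The peaks of 4 lists were pooled, peaks within 10 nt of each other on the same strand were merged into 8501 loci, and a locus was kept when it held a peak in both input lists and none in either empty vector list. The EV-negative loci made up 12.4% of all loci and 39.1% (95% Wilson interval 37.2 to 40.9) of the 2693 loci with peaks over both inputs. The other 1641 of these held an empty vector peak for V5 only (650 loci), for FLAG only (365 loci) or for both tags (626 loci, the loci of all 4 lists). Whether a locus has a peak, and how high it is over input, were therefore used in the choice, and these values are given as a description.

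The study asked which human RNAs are contacted by a catalytically dead Streptococcus pyogenes Cas9 expressed with no guide RNA. HEK 293T cells, a line derived from human embryonic kidney, were transiently transfected with V5-dSpCas9, with 3xFLAG-dSpCas9 or with the empty vector pCDNA3.1, and no dSpCas9 construct carried a nuclear localization signal. The 12 libraries formed 6 groups of 2 biological replicates. These were the V5 IP and its size-matched input from V5-dSpCas9 cells, the FLAG IP and its size-matched input from 3xFLAG-dSpCas9 cells, and empty vector cells taken through the V5 or the FLAG IP. All cells were cross-linked with 2 doses of UV at 400 mJ/cm2, and the membrane was cut from 115 kDa upwards. Overexpression from a plasmid limits these cells as a model, and the lists hold no expression values against which the cell type could be checked.

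In eCLIP, UV light joins a protein to RNA it touches, the protein is pulled down with its RNA, and the fragments are sequenced. The size-matched input is RNA from the same gel region of the same cells without the IP, so it carries the abundance of each RNA and the background of the gel region. The empty vector IP uses the same antibody in cells without the tagged protein, so it carries what the antibody and the beads bind by themselves.

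Each list gave 1 log2 enrichment (IP reads over control reads) and 1 −log10 p-value per peak for both replicates together, so no spread between replicates can be given. The lowest log2 enrichment in any list was 3.00, an 8-fold excess, and the lowest −log10 p-value was 3.01. A locus without an empty vector peak was thus a locus that did not pass the authors' filters over that control. Its ratio over empty vector is not in the lists, and it is not shown to be at the empty vector's level. Read depth is unknown, and every interval here covers counting error over loci only, where loci of 1 gene share their RNA.

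Several of the highest EV-negative loci lay on tRNA genes or were like a tRNA. The 8 windows below are the EV-negative loci that held the B box on their own strand, a part of the internal promoter of tRNA genes that becomes the T arm of the tRNA. It was searched as the letters GGTTC, any base, A, any 2 bases and CC. They are shown because 5 of them belonged to the 12 loci with the highest mean log2 enrichment, and the set was chosen after the values were seen. Capitals mark the B box match, each window is 30 bases of hg38 read 5′ to 3′ on the strand given, and tRNA names are those of RefSeq. 
ENSG00000275016, chr15:95784687-95784716 (+): agggtcgtgGGTTCAAGCCCcacgttgggc
TRC-GCA3-1, chr7:149589074-149589103 (−): gaggtccctGGTTCAAATCCaggtgccccc
TRS-AGA2-6, chr17:8226611-8226640 (−): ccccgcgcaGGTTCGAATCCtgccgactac
TRR-CCT4-1, chr7:139340742-139340771 (+): gggattgtgGGTTCGAGTCCcatctggggt
TRR-CCT1-1, chr17:75033948-75033977 (+): gggattgtgGGTTCGAGTCCcacctggggt
TRS-GCT3-1, chr11:66348171-66348200 (+): gcacgcgtgGGTTCGAATCCcatcctcgtc
TRS-TGA2-1, chr6:27545740-27545769 (+): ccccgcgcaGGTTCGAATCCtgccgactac
TRR-TCG3-1, chr17:75035155-75035184 (+): aagattgagGGTTCGAGTCCcttcgtggtc
TRS-AGA2-6 and TRS-TGA2-1 gave the same 30 bases, so reads of one gene could not be told from reads of the other within this window.

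A further 4 windows come from EV-negative loci inside introns whose sequence was like ribosomal RNA, again chosen after the values were seen. They are shown because a read of a mature 18S or 28S rRNA and a read of these introns would be hard to tell apart. Capitals mark bases that lie in a 15-mer also found in a RefSeq rRNA gene.
PDE3A intron, like 18S, chr12:20551418-20551447 (+): agatttACGGACAGGATTGACAGATTGATA
AAMDC intron, like 28S, chr11:77886578-77886607 (+): gacgcaCATGAATGGATGAACGAGATTCCC
RYR2 intron, like 28S, chr1:237603157-237603186 (+): GACGttCATGAATGGATGAACGAGATTCCC
HFM1 intron, like 28S, chr1:91387530-91387559 (−): GGGGCtGTACACCTGTCAAACGGTAACGCA
The AAMDC and RYR2 windows ended in the same run of capitals.

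The last windows show the RNA motif that the study describes, the GU-loop:5nt-stem. It is a GU dinucleotide whose U has a predicted pairing probability below 0.7, followed by 5 bases that each have one above 0.5. They come from 7 EV-negative loci in coding sequence (CDS) with the motif and a mean log2 enrichment of at least 4.17. Other loci that meet these limits are left out, so the set is not a ranking. Capitals mark the GU (GT in DNA letters) and its 5 stem bases.
INPP5D, chr2:233204371-233204400 (+): ccggcaagcagGTGCCCGcgccccggctgc
SH2B3, chr12:111447429-111447458 (+): cagctcagctgGTTCAGCtgcagggccctg
SAC3D1, chr11:65041603-65041632 (+): gcttgcgagctGTGCTCCtggacctggcgc
FAT1, chr4:186597143-186597172 (−): gGTGTCAGagtgatatcgacgagtgctctg
GXYLT2, chr3:72908420-72908449 (+): tccacctggctGTGGTGGcctgtggcaatc
RNF185, chr22:31195489-31195518 (+): cagacaggtgtGTCCTGTttgcaaagctgg
PINK1, chr1:20633656-20633685 (+): ggcggcgggctGTGTCCGcggggagcgtcc
The 5 stem bases differed between all 7 windows.

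The EV-negative loci were moderately enriched over input. The median of the highest log2 enrichment per locus was 3.59 for V5, with quartiles of 3.29 and 3.93 and a highest value of 7.98. For FLAG the median was 3.51, with quartiles of 3.22 and 3.88 and a highest value of 8.20. Most loci thus sat close to the lower limit of the lists, and 255 (24.2%) were below 3.5 for both tags. Over the loci of all 4 lists the medians were 4.30 for V5 and 4.38 for FLAG. In the loci with an empty vector peak for V5 only they were 3.80 and 3.58, and in those with one for FLAG only 3.82 and 4.02. A log2 enrichment of at least 4 for both tags was found at 76 EV-negative loci (7.22%), against 22.1% of all loci over both inputs. The log2 enrichment over input was part of the rule, so nothing is read from that gap.

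The p-values of the EV-negative loci were less extreme in the same way. The median −log10 p-value was 7.32 for V5 and 8.99 for FLAG, against 19.4 and 27.2 at the loci of all 4 lists. A value at the ceiling of 400 for either tag occurred at 13 EV-negative loci (1.24%), against 5.50% of all loci over both inputs. A −log10 p-value of at least 10 for both tags was reached at 276 EV-negative loci (26.2%) and at 488 loci of all 4 lists (78.0%). These values too come from the contrast that chose the loci.

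The rule kept only loci in which V5 and FLAG peaks merged at gaps of at most 10 nt. Close overlap of the tags was thus largely set by the rule and is given as a description. Of the EV-negative loci, 835 consisted of 1 V5 and 1 FLAG peak, 196 of 3 or 4 peaks and 21 of 5 or more. V5 and FLAG peaks overlapped in 1043 loci (99.1%), and in 1012 they overlapped over at least 50% of the shorter peak. The loci held 1213 V5 peaks over input (18.4% of that list) and 1231 FLAG peaks (18.8%). Their median length was 105 nt, from 7 to 432 nt.

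The heights of the enrichment, which the lists cut off below 3.00, were only loosely correlated between the tags over all EV-negative loci. Across the 1052 loci the correlation of V5 with FLAG log2 enrichment was r = 0.429 (Pearson) and 0.242 (Spearman), as a description over loci from the same 2 peak lists, and the Pearson value was 0.527 over the 626 loci of all 4 lists. Within mRNA regions the Pearson value was lower, at 0.179 in CDS (430 loci), 0.218 in 5′ UTRs (108 loci) and 0.244 in 3′ UTRs (466 loci), while it was 0.844 over the 23 loci in introns. The difference V5 minus FLAG had a median of 0.05, quartiles of −0.30 and 0.42 and a range from −1.96 to 2.26. FLAG and V5 were within 0.5 of each other at 667 loci (63.4%) and at least 1 apart at 91 (8.65%). In the plot of V5 against FLAG, the upper right is held by loci on tRNA genes, rRNA-like loci and other introns, while the mRNA exons form a cloud near the lower limit.

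**Figure D1:**
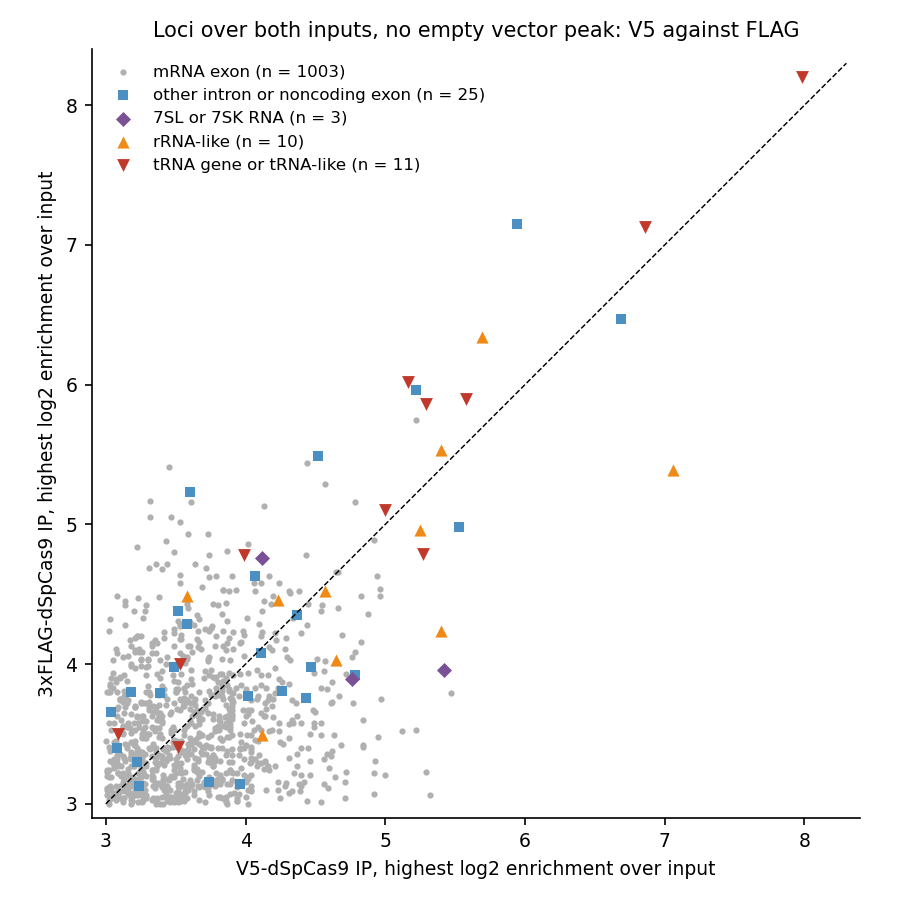
Highest log2 enrichment over size-matched input at each of the 1052 EV-negative loci, V5-dSpCas9 on the x axis and 3xFLAG-dSpCas9 on the y axis, with 1 point per locus, the kind of locus by colour and shape, and a dashed line where both are equal. The 1003 mRNA exon loci have medians of 3.58 and 3.49, and the 11 tRNA loci have medians of 5.16 and 5.10. The 25 loci marked as other intron or noncoding exon include 7 in other exons of coding genes.

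The largest gaps between tags lay in mRNA exons. TMEM245, a transmembrane protein gene, had 5.32 in V5 and 3.06 in FLAG in its CDS. RMND1, needed for mitochondrial translation, had 5.29 and 3.23 in its 3′ UTR, and NR6A1, an orphan nuclear receptor, had 4.92 and 3.07 in its 3′ UTR. In the other direction, CANT1, a calcium-activated nucleotidase, had 3.45 in V5 and 5.41 in FLAG in its 3′ UTR. SLC39A7, a zinc transporter of the secretory pathway, held the next pair, with 3.32 and 5.17 at a 5′ UTR locus and 3.32 and 5.05 at a CDS locus. In each of these 6 loci the lower tag was within 0.5 of the lower limit of the lists. With 1 value per tag there is no replicate check of these gaps.

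By kind, the 1052 loci comprised 1003 in mRNA exons, 11 on tRNA genes or like a tRNA, 10 like ribosomal RNA, 3 like 7SL or 7SK RNA, and 25 others. The mRNA exon kind covers UTRs and CDS. The 25 others lay in introns, in noncoding exons or, for 7 of them, in other exons of coding genes. The tRNA loci had medians of 5.16 for V5 and 5.10 for FLAG, the rRNA-like loci 4.95 and 4.5, and the 7SL or 7SK loci 4.76 and 3.96. The 25 others had 4.02 and 3.98, and the mRNA exons had 3.58 and 3.49, the lowest of the 5 kinds for both tags. Both tags reached a log2 enrichment of 4 at 7 of the 11 tRNA loci, 8 of the 10 rRNA-like loci and 52 (5.18%) of the mRNA exon loci. Of the 12 loci with the highest mean over both tags, 10 lay in introns, and 8 were on a tRNA gene or like a small or ribosomal RNA.

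Transfer RNAs carry amino acids to the ribosome, and their genes are often found within introns or next to other genes. ZNF767P, a zinc finger pseudogene, held TRC-GCA3-1, a cysteine tRNA gene, in an intron, and the locus had 6.86 in V5 and 7.13 in FLAG. TRS-AGA2-6, a serine tRNA gene at the 3′ UTR of the telomere maintenance gene CTC1, had 5.58 and 5.90. LUC7L2, which encodes a splicing factor of the U1 snRNP, held the arginine tRNA gene TRR-CCT4-1 in an intron with 5.16 and 6.02 and with both −log10 p-values at the ceiling of 400. All 3 were thus above 5 for both tags.

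KCTD2, which encodes a BTB domain protein, held a pair of arginine tRNA genes in its intron. TRR-CCT1-1 had 5.29 in V5 and 5.86 in FLAG, and TRR-TCG3-1 had 3.99 and 4.78. In an intron of the noncoding gene B4GAT1-DT, the serine tRNA gene TRS-GCT3-1 had 5.00 and 5.10 with both −log10 p-values at 400. TRS-TGA2-1, in no annotated gene on chromosome 6, had 5.27 and 4.79. Levels therefore differed among the tRNA genes, including those that shared a host.

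The lowest tRNA loci were close to the limit of the lists. The mitochondrial proline tRNA gene MT-TP had 3.53 in V5 and 4.00 in FLAG, the tryptophan tRNA gene TRW-CCA2-1 within SLC47A1, a transporter of organic cations, had 3.52 and 3.41, and the lysine tRNA gene TRK-CTT1-1 within ARMH4 had 3.09 and 3.5. The highest locus of all, chr15:95784664-95784728 (+) in an intron of the long noncoding gene ENSG00000275016, had 7.98 and 8.20. RefSeq lists no tRNA gene there, but 51.0% of its 15-mers occurred in RefSeq small RNA genes, with TRK-CTT1-1 as the match. It held 3 V5 and 4 FLAG peaks.

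Most of these loci lay on the same part of the tRNA. Of the 9 nuclear tRNA genes with an EV-negative locus, 8 had a locus that began 12 to 37 nt after the start of the tRNA gene and ended 4 to 10 nt past its end, so that it held the 3′ part of the tRNA and the first bases of the 3′ trailer. Of those 8, 7 held the B box letters printed above. The exception among the 9 was the 15 nt locus at TRK-CTT1-1, which held the first bases of the tRNA gene and 6 nt before it. RefSeq's table gave no strand, so the tRNA was read on the strand of the locus, and for TRK-CTT1-1 and TRW-CCA2-1, which held no B box, the choice of strand decides which end this is. Trailers are removed when a tRNA matures, and the authors' lists do not say whether single reads crossed the end. Human tRNA genes have near-identical copies, and how the authors assigned reads that fit several copies is not given in the sources used here, so the copy named is uncertain.

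**Figure D2:**
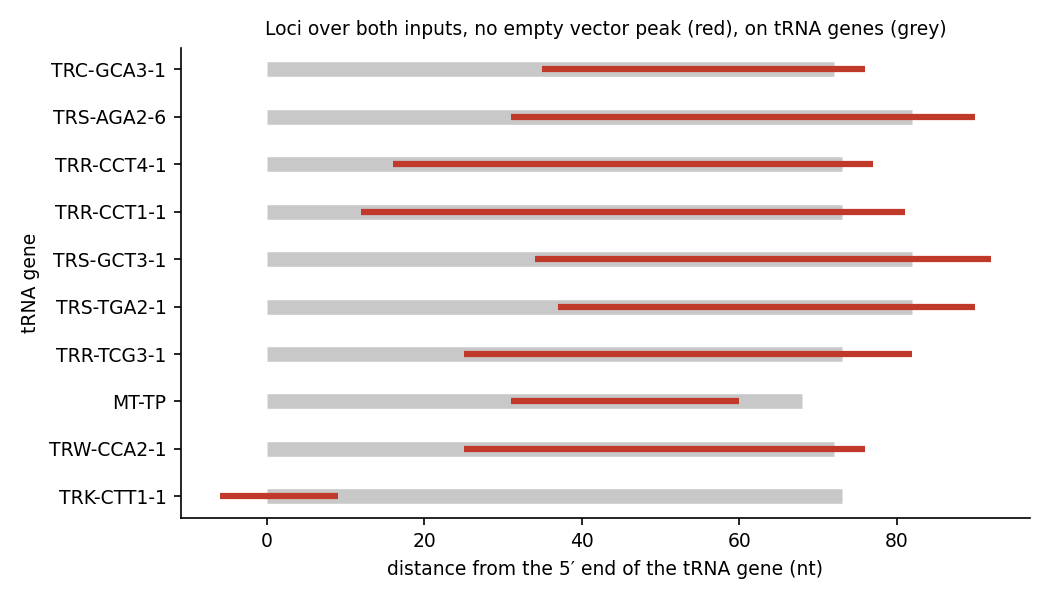
Position of EV-negative loci (red bars) along the tRNA genes they lie on (grey bars), with the distance from the 5′ end of the tRNA gene in nt on the x axis and 1 tRNA gene per row. In 8 of the 9 nuclear genes the locus begins 12 to 37 nt into the gene and ends 4 to 10 nt past it.

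Loci on RefSeq tRNA genes were as frequent in 1 other class. There were 10 among the EV-negative loci (0.951%), 6 among the 650 loci with an empty vector peak for V5 only (0.923%), and 20 among all 8501 loci (0.235%). The same B box letters, searched on the locus' own strand, were in 8 EV-negative loci (0.76%), in 6 loci with an empty vector peak for V5 only (0.923%) and in 26 of all loci (0.306%), of which 1 had peaks in all 4 lists. Counting tRNA, rRNA and other small RNA together by 15-mers, 23 EV-negative loci (2.19%, 1.46 to 3.26) were at least 50% alike, against 1.08% of all loci over both inputs and 49 of all 8501 loci (0.576%). With an empty vector peak for V5 only there were 6 (0.923%, 0.424 to 2), all of them tRNA-like. Among the 365 loci with an empty vector peak for FLAG only there were 0, which allows a share of up to 0.822% (3 counts of the total), and among the 626 loci of all 4 lists there were 0, which allows up to 0.479% by the same measure. The Wilson upper limits of these shares were 1.04% and 0.61%.

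The rRNA-like loci are reported as uncertain, since their reads may come from any copy of the rRNA genes. On chromosome 21, ENSG00000280441 held a 153 nt intronic locus that was 28S sequence throughout, with 7.06 in V5 and 5.39 in FLAG. Its neighbour ENSG00000278996 held one in 45S sequence with 4.57 and 4.52 and one in 28S sequence with 3.58 and 4.49. The others lay outside the rRNA gene arrays. PDE3A, a cyclic nucleotide phosphodiesterase, had 5.69 and 6.34, and AAMDC had 5.40 and 5.53. RYR2, a calcium release channel of heart muscle, had 5.40 and 4.24, HFM1, a helicase of meiosis, had 4.65 and 4.03, and SLCO5A1, an anion transporter family gene, had 5.25 and 4.96. For these 5 introns, 61.2% to 81.8% of the 15-mers were found in RefSeq rRNA genes. The 5S pseudogenes RNA5SP429 and RNA5SP216 had 4.23 and 4.46, and 4.12 and 3.49.

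The remaining loci outside mRNA exons were mixed. RN7SL2, one of the genes of 7SL, the RNA of the signal recognition particle, held a locus with 5.42 in V5 and 3.96 in FLAG and one with 4.76 and 3.89, and the 7SK pseudogene RN7SKP71 had 4.12 and 4.76. The highest intronic loci below the limit for likeness to small or ribosomal RNA lay in CTC-338M12.4 and in SYCP2L, a meiotic gene. The former was a 28 nt locus with 6.69 and 6.47, and the latter a 26 nt locus with 5.94 and 7.15. In CTC-338M12.4, 7.14% of the 15-mers occurred in RefSeq small RNA genes, with the tRNA gene TRG-GCC1-1 as the match. In SYCP2L this was 16.7%, with the tRNA gene TRN-GTT2-1 as the match. PID1, which encodes a phosphotyrosine interaction domain protein, held an intronic locus with 5.22 and 5.96 and one with 5.53 and 4.98, and 44.1% of the 15-mers of the latter were found in 28S genes. Introns made up 23 EV-negative loci (2.19%, 1.46 to 3.26), against 56 of all 8501 loci (0.659%). They made up 5 loci with an empty vector peak for V5 only (0.769%, 0.329 to 1.79), 3 with one for FLAG only (0.822%, 0.28 to 2.39) and 0 of the 626 loci of all 4 lists. Their medians were 5.22 in V5 and 4.98 in FLAG.

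In mRNA exons the highest value was in the CDS of MUC16, a large cell surface mucin, where a 24 nt locus had 5.22 in V5 and 5.75 in FLAG. The −log10 p-values of this locus were 4.13 and 6.45, below the EV-negative medians of 7.32 and 8.99. It was the only mRNA exon locus with a log2 enrichment of at least 5 for both tags, and the MUC16 CDS is repetitive, so its exact place is uncertain. The highest 5′ UTR loci were those of ZBTB24, a zinc finger regulator of DNA methylation, with 4.78 and 5.16, and of EI24, a p53-induced gene of the endoplasmic reticulum, with 4.66 and 4.66. In 3′ UTRs, NAT8L, the enzyme that makes N-acetylaspartate, had 4.92 and 4.89, FBXL18, an F-box protein, had 4.94 and 4.63, MTSS2 had 4.96 and 4.54, and POR, the reductase of cytochrome P450 enzymes, had 4.96 and 4.49. These genes were picked as the highest after their values were seen, apart from MUC16 and FBXL18.

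At 9 mRNA exon loci the p-value was at the ceiling for at least 1 tag. ARF1, the small GTPase that recruits coats to the Golgi, held 3 of them, all in its 3′ UTR. EEF2, which moves the ribosome along the mRNA, had 3.65 in V5 and 3.23 in FLAG over 18 nt. Ribosomal protein genes RPS14 and RPLP1 had 3.29 and 3.27, and 3.40 and 3.12. These log2 enrichments were near the lower limit although the p-value was at the ceiling for V5 in EEF2, for FLAG in RPS14 and for both tags in RPLP1. H4C3, a core histone gene with near-identical copies, had 4.54 and 3.83, COQ8A, a gene of coenzyme Q synthesis, had 3.95 and 3.77, and USP22, a histone deubiquitinase, had 3.18 and 4.13. The loci of EEF2, RPS14, RPLP1, COQ8A and USP22 were picked after their values were seen.

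The EV-negative loci were spread over 834 host genes. Of these, 674 held 1 locus, 124 held 2, 23 held 3 and 13 held 4 or more. ARHGAP35, which encodes the GTPase-activating protein p190RhoGAP, held most, with 6 loci in its 3′ UTR and 1 in its CDS and values of 3.04 to 4.04 in V5 and 3.19 to 4.26 in FLAG. CLTC, the clathrin heavy chain, held 6, all in the CDS, with 3.02 to 4.55 and 3.10 to 4.42. NACC2, a transcriptional repressor, held 6, all in the 3′ UTR, with 3.08 to 3.83 and 3.02 to 4.49. The highest of the CLTC loci had 4.55 and 4.42, so that both tags passed 4 there. FOXK1, a forkhead transcription factor, held 4 loci in the 3′ UTR and 1 in the CDS with 3.08 to 3.65 and 3.25 to 3.72, and ARF1 held 3 in the 3′ UTR and 1 in the 5′ UTR with 3.26 to 4.17 and 3.01 to 4.63.

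The longest loci were not the highest. MBTPS1, the site-1 protease of the Golgi, held a 432 nt locus in its 3′ UTR with 3.56 in V5 and 4.29 in FLAG. MYO9A, an unconventional myosin, held a 424 nt intronic locus with 4.78 and 3.92. PINK1, the kinase that marks damaged mitochondria, held a 410 nt locus in its CDS with 4.01 and 4.33.

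By annotation of the locus midpoint, 466 EV-negative loci (44.3%, 41.3 to 47.3) lay in 3′ UTRs, 430 (40.9%, 37.9 to 43.9) in CDS and 108 (10.3%, 8.57 to 12.2) in 5′ UTRs. Of all 8501 loci, 36.9% lay in 3′ UTRs, 52.8% in CDS and 7.76% in 5′ UTRs. Averaged over the host mRNAs of the EV-negative loci, the 5′ UTR made up 5.14% of the length, the CDS 47.7% and the 3′ UTR 47.1%. The 5′ UTRs thus held a larger share of these loci than of the length, as they did over all 8501 loci (7.76% against 4.93%). Among the 76 loci left by a limit of 4 on both log2 enrichments over input, 4 (5.26%) lay in 5′ UTRs. Only 52 of these 76 were mRNA exon loci, against 1003 of all 1052 EV-negative loci, so the 2 shares are not directly comparable. Loci with an empty vector peak for V5 only were more often in CDS (53.2%) and 5′ UTR (15.7%) and less often in 3′ UTR (28.6%), with intervals that did not overlap those of the EV-negative loci. Loci with one for FLAG only had 53.2% (48 to 58.2) in 3′ UTRs and 3.01% (1.69 to 5.32) in 5′ UTRs, again without overlap of the intervals. The loci of all 4 lists had 46.8% in 3′ UTRs, 45.8% in CDS and 5.91% (4.32 to 8.04) in 5′ UTRs, where only the last interval did not overlap. The comparison of regions was not tested, because loci of 1 gene are not independent.

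**Figure D3:**
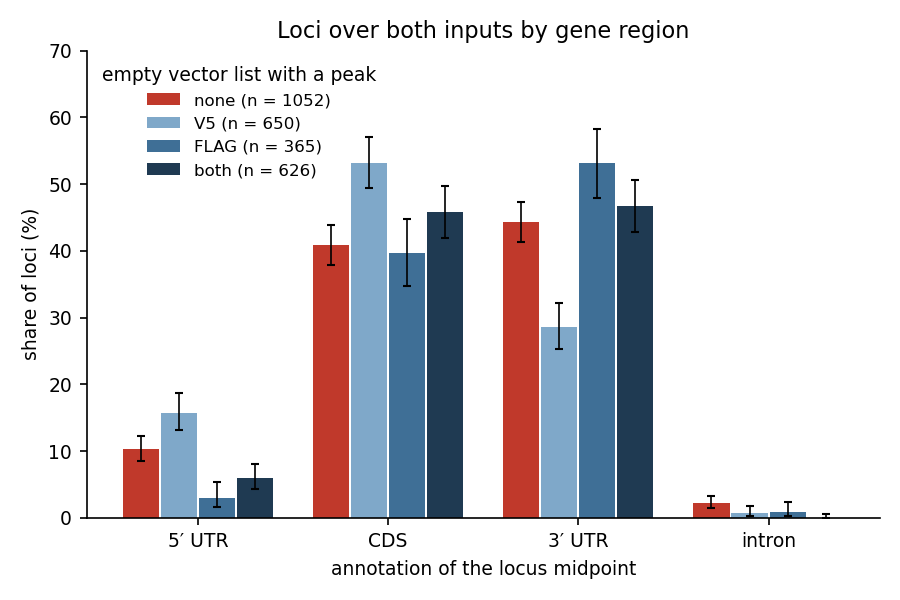
Share of loci (%) with their midpoint in 5′ UTR, CDS, 3′ UTR or intron, by class of locus over both inputs, with 95% Wilson intervals as error bars that cover counting error only. The EV-negative loci have 10.3% in 5′ UTRs, between the 15.7% of loci with an empty vector peak for V5 only and the 5.91% of loci of all 4 lists.

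Height hardly differed between mRNA regions. EV-negative loci in 5′ UTRs had medians of 3.53 in V5 and 3.53 in FLAG, those in CDS 3.54 and 3.46, and those in 3′ UTRs 3.63 and 3.52. Their median lengths were 132, 92 and 116 nt, and their median GC contents 73.6%, 60.0% and 59.3%. Over all EV-negative loci the median GC content was 60.2%, against 62.1% in loci with an empty vector peak for V5 only, 56.0% in those with one for FLAG only and 57.7% in the loci of all 4 lists.

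Start codons and exon edges set the EV-negative loci apart from some classes and not from others. Of the 1000 that could be placed on a transcript, 67 (6.7%, 5.31 to 8.42) held the start codon, against 6.11% of all merged loci. It was held by 14.5% (12 to 17.5) of loci with an empty vector peak for V5 only, 3.16% (1.77 to 5.57) of those with one for FLAG only and 8.28% (6.35 to 10.7) of the loci of all 4 lists. The stop codon was held by 46 (4.6%, 3.47 to 6.08), against 3.5% of all merged loci. An exon edge within 2 nt of the locus' own edge was found for 267 (26.7%, 24.1 to 29.5), against 31.0% of all merged loci. It was 41.2% (37.5 to 45.1) in the class with a V5 peak only, 30.5% (25.9 to 35.5) in the class with a FLAG peak only and 36.4% (32.7 to 40.2) at the loci of all 4 lists. These classes differ in length, with medians of 118, 115 and 127 nt against 105 nt, and the part of length in these shares was not tested.

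In 3′ UTRs, most EV-negative loci lay towards the stop codon, as did all loci together. Of 466 loci, 308 (66.1%) lay nearer to the stop codon than to the end of the 3′ UTR, against 63.6% of all merged loci. The share was 63.4% with an empty vector peak for V5 only, 66.5% with one for FLAG only and 55.3% (162 of 293) at the loci of all 4 lists. Their median relative place was 0.375 of the 3′ UTR's length, against 0.377 over all merged loci and 0.463 at the loci of all 4 lists, and the median distance after the stop codon was 642 nt, against 769 and 907 nt. Within 100 nt of the stop codon lay 45 loci (9.66%), against 9.69% of all merged loci.

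The GU-loop:5nt-stem was predicted in 579 EV-negative loci (55.0%, 52 to 58). It was in 61.7% of loci with an empty vector peak for V5 only, 59.2% of those with one for FLAG only, 64.2% of the loci of all 4 lists and 47.7% of all 8501 loci. Presence rose with the length of the locus, so the classes are compared within lengths. Under 50 nt, 17.1% of the EV-negative loci held it, at 50 to 99 nt 44.2% (39.3 to 49.2), at 100 to under 150 nt 65.7% (60.4 to 70.6) and at 150 nt or more 74.4% (68.5 to 79.5). The loci of all 4 lists had 28.2%, 51.5% (43 to 60), 59.6% (53 to 65.8) and 81.9% (76.4 to 86.3). The order of the classes was thus not the same in every length class, and the intervals given overlapped.

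**Figure D4:**
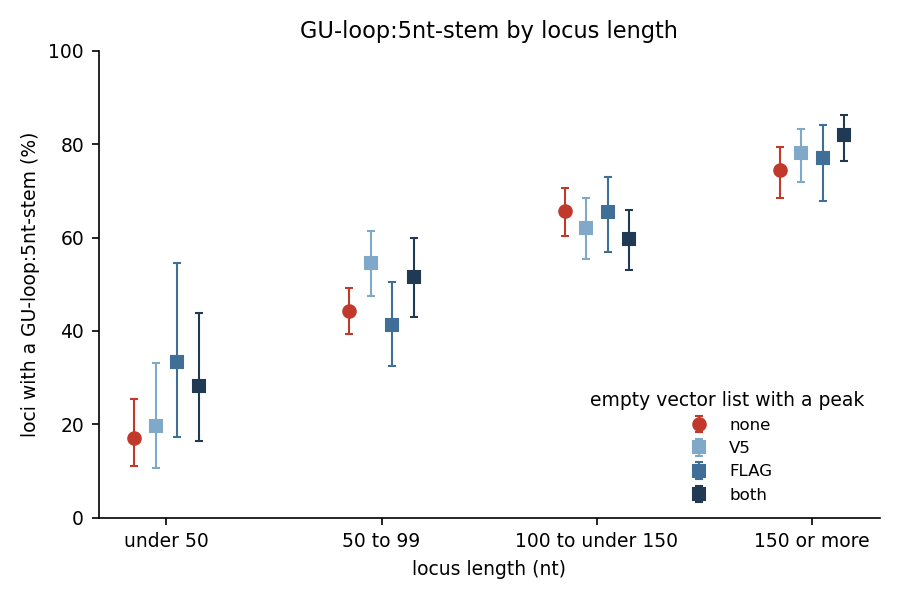
Share of loci (%) with a predicted GU-loop:5nt-stem by length of the locus in nt and by class, with 95% Wilson intervals that cover counting error only. The share among EV-negative loci goes from 17.1% under 50 nt to 74.4% at 150 nt or more.

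Among the EV-negative loci, the motif was found in 57.4% of those in 5′ UTRs, 47.4% in CDS and 62.7% in 3′ UTRs. Loci with it had medians of 3.59 in V5 and 3.48 in FLAG at a median length of 123 nt, and loci without it had 3.59 and 3.55 at 88 nt. The heights of both sets therefore differed by less than 0.1 for either tag. There were 25 EV-negative loci with no GU dinucleotide at all. With stricter limits on pairing (U below 0.5, stem bases above 0.7), the share was 13.1% (11.2 to 15.3). It was 15.5% with an empty vector peak for V5 only, 13.4% with one for FLAG only and 18.2% (15.4 to 21.4) at the loci of all 4 lists, without a split by length.

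The CDS loci whose windows are printed above show how the motif was met. INPP5D, a phosphoinositide phosphatase of blood cells, had 4.44 in V5 and 5.44 in FLAG, with a pairing probability of 0.65 for the U, just under the limit of 0.7, and of 0.52 to 0.87 for the stem. SH2B3, an adaptor of cytokine signalling, had 4.57 and 5.29, with 0.55 and 0.55 to 0.95. GXYLT2, a xylosyltransferase, had 4.57 and 4.02, with the U almost always open at 0.04 and stem bases at 0.70 to 0.91. RNF185, a ubiquitin ligase, had 4.56 and 3.95, with 0.10 and 0.82 to 0.87. In the first pair the prediction was near its limits, and in the second it was not. SAC3D1 had 4.02 and 4.86, and FAT1, a giant cadherin, had 3.61 and 5.16 with 2 motif sites. PINK1 held 3 sites in its CDS locus.

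The host genes were described with 18 gene lists, as the number of their loci over both inputs that were EV-negative. Over all mRNA loci this was 1004 of 2605 (38.5%, 36.7 to 40.4). For cytoplasmic ribosomal proteins it was 10 of 86 (11.6%, 6.44 to 20.1), with RPSA at 3.73 in V5 and 4.93 in FLAG and RPS21 at 4.23 and 3.83. Of the others of that list, 33 were in all 4 lists, 40 had an empty vector peak for V5 only and 3 for FLAG only. For translation factors it was 5 of 36 (13.9%, 6.08 to 28.7), with ABCE1, which splits ribosomes, at 4.45 and 3.40 and EIF4B, a helper of initiation, at 4.11 and 3.29. Chromatin modifiers and remodelers had 6 of 42 (14.3%, 6.72 to 27.8), with a pair of loci of the histone methyltransferase KMT2A at 3.71 and 4.25, and at 4.07 and 3.83.

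Loci of stress signalling genes were also seldom EV-negative. The list of p53 target genes had 9 of 52 loci (17.3%, 9.38 to 29.7), while 28 of its loci were in all 4 lists. Counted by gene this differed, since 8 of its 22 genes with any locus held an EV-negative locus, against 796 of 3474 mRNA genes. For the integrated stress response list it was 1 of 9 genes. PPM1D, a phosphatase that switches p53 signalling off, had 4.78 in V5 and 4.09 in FLAG, and MDM2, the ubiquitin ligase of p53, had 3.88 and 3.68. The integrated stress response list had 1 of 14 (7.14%, 1.27 to 31.5), CEBPG, a bZIP transcription factor, with 4.02 and 3.67. These 5 lists had intervals wholly below 38.5%, 0 lists had one wholly above it, and for the other 13 the interval held it. Peaks over empty vector were the criterion, loci of 1 gene share their RNA, and the lists were not tested against each other.

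**Figure D5:**
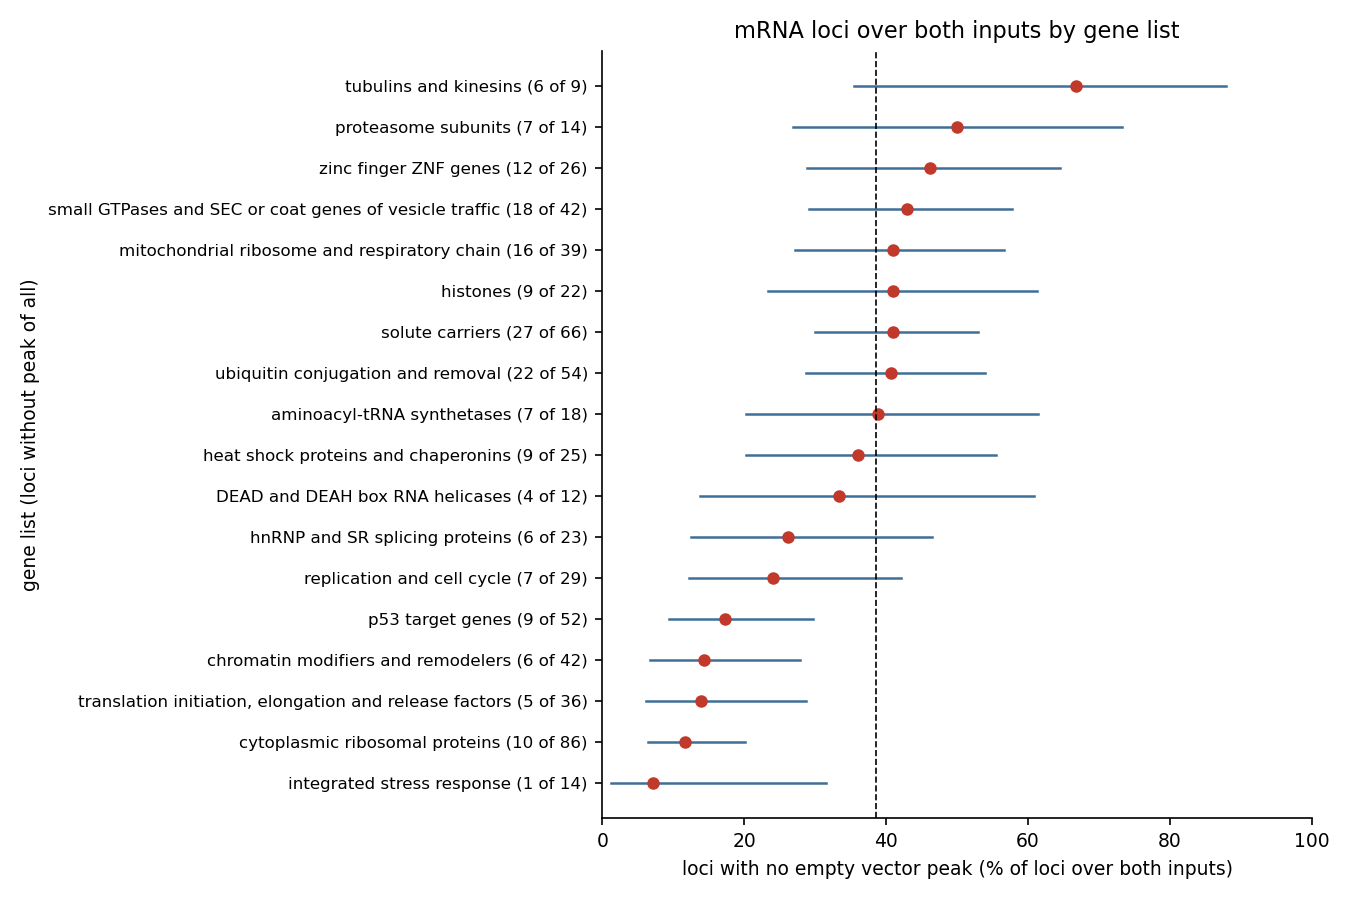
Share (%) of the mRNA loci over both inputs that had no empty vector peak, by gene list, with 95% Wilson intervals that cover counting error only, and a dashed line at the 38.5% of all mRNA loci. Cytoplasmic ribosomal proteins (10 of 86) lie well to the left of the line, and solute carriers (27 of 66) lie close to it.

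For several lists of 26 or more loci the share was near that of all mRNA loci. Solute carriers had 27 of 66 (40.9%), with SLC7A2, a transporter of cationic amino acids, at 4.66 in V5 and 4.40 in FLAG. Ubiquitin conjugation and removal had 22 of 54 (40.7%), with FBXW11, an F-box protein, at 4.21 and 4.22. The list of small GTPases and SEC or coat genes of vesicle traffic had 18 of 42 (42.9%), with ARF1 at 4.17 and 4.63 and SEC14L1, which has a lipid-binding SEC14 domain and is no GTPase, at 4.20 and 4.49. Each of these counts was within a few loci of what 38.5% gives. Genes of the mitochondrial ribosome and respiratory chain had 16 of 39 (41%), with MRPL10 at 3.68 and 4.11 and ATP5MJ at 3.80 and 3.87, and ZNF genes had 12 of 26 (46.2%), with ZNF598, a ligase that senses collided ribosomes, at 4.38 and 4.52 and ZNF516 at 4.12 and 4.38.

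The smaller lists had wide intervals. Histones had 9 of 22 (40.9%), with H4C3 at 4.54 in V5 and 3.83 in FLAG. Heat shock proteins and chaperonins had 9 of 25 (36.0%), with the cochaperones DNAJB2 at 3.49 and 4.80 and DNAJC14 at 3.83 and 4.36. Aminoacyl-tRNA synthetases had 7 of 18 (38.9%), with LARS1 at 3.84 and 4.53 and the mitochondrial TARS2 at 3.18 and 4.00. Their shares were all close to the share of all mRNA loci. Proteasome subunits had 7 of 14 (50.0%), with PSMD8 at 3.73 and 4.02 and PSMA5 at 3.83 and 3.85, and replication and cell cycle genes had 7 of 29 (24.1%), with the phosphatase CDC25A at 3.66 and 4.12 and the transcription factor E2F1 at 3.88 and 3.63. Splicing proteins had 6 of 23 (26.1%), with HNRNPK at 3.75 and 3.96 and SF3B3 at 3.23 and 4.47, DEAD and DEAH box helicases had 4 of 12 (33.3%), with DDX50 at 3.78 and 3.52 and DHX30 at 3.70 and 3.40, and tubulins and kinesins had 6 of 9 (66.7%, 35.4 to 87.9), all of them in the motor protein genes KIF1A and KIF1C.

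An EV-negative locus did not mean a host gene free of empty vector peaks. Of the 834 host genes, 405 (48.6%) also had a locus with an empty vector peak, against 1751 of 3596 (48.7%) of all genes with a locus, and 136 (16.3%) also had a locus of all 4 lists. The 541 EV-negative loci in mRNAs that had such a peak elsewhere had medians of 3.58 in V5 and 3.52 in FLAG, and the 462 in mRNAs without one had 3.57 and 3.48. The heights were therefore alike to within 0.1, whereas the place differed. In mRNAs without an empty vector peak, 14.1% (11.2 to 17.5) of the loci lay in the 5′ UTR and 61.0% (56.5 to 65.4) held the GU-loop:5nt-stem, at a median length of 120 nt. In the others this was 7.95% (5.95 to 10.5) and 51.0% (46.8 to 55.2), at 99 nt.

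Genes that the study used as targets or controls had few EV-negative loci. CDKN1A, the p53-induced inhibitor of cyclin-dependent kinases, had 1, in its 3′ UTR, with 3.15 in V5 and 3.40 in FLAG. It lay beside 6 loci of all 4 lists and 4 loci of other classes, and a FLAG empty vector peak lay 129 nt away. CDIP1, a p53-dependent apoptosis gene, had 0 beside 4 loci of all 4 lists. ATF3, a stress-induced transcription factor, had 0 beside 5 loci of all 4 lists and 2 of other classes. Over all loci with peaks over both inputs, 39.1% were EV-negative. The control gene ACTB had 0 loci of any class and GAPDH had only 1, of another class, so their lack of EV-negative loci is not informative.

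The border of the rule was crossed within short distances. An empty vector peak lay 11 to 100 nt from 66 EV-negative loci (6.27%), and at 4 of them within 20 nt. The closest were loci of ZNF740, a zinc finger gene, at 12 nt from a FLAG empty vector peak of 3.73, of POLDIP3, a gene of mRNA export, at 19 nt from a V5 peak of 3.14, and of ITGB5, an integrin subunit, at 19 nt from a V5 peak of 3.74. On the other side, 828 loci over both inputs were left out by a single empty vector peak, with a median of 3.5 and a lowest value of 3.00. That peak was below 3.25 at 211 of them, which had medians of 3.70 in V5 and 3.67 in FLAG over input. These 211 thus stood slightly higher over input than the EV-negative loci.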

How the data were processed

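eCLIP was measured in 12 libraries of 6 groups, and the 4 lists of reproducible peaks (V5 or FLAG IP over size-matched input or over empty vector) were used. Per the submitters' processing notes the tools were UMI-tools 1.0.0, cutadapt 1.14, STAR 2.4.0i and SAMtools 1.6 on GRCh38 (hg38). The authors deposited, for each peak, a log2 enrichment of IP over control and a −log10 p-value, each combining 2 replicates. Single-replicate values were not used here, and the scaling, read assignment and annotation of the peak calling are not given in the sources used here. Depth is unknown, so how firmly a low value is measured cannot be stated.

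Peaks within 10 nt on the same strand were merged (checked against bedtools 2.31.1), and each locus took the highest log2 enrichment per list. Regions came from GENCODE 44 by locus midpoint, and small RNA genes from RefSeq, whose table gave no strand. A locus was like a small RNA when at least 50% of its 15-mers occurred in such genes. The GU-loop:5nt-stem was predicted with ViennaRNA 2.7.2 (window 70 nt, flanks 50 nt, pairing of U below 0.7 and of 5 stem bases above 0.5). The scripts (Python 3.11.15) were tested on simulated data. No test was run, since the lists give 1 value per peak and the loci were chosen by these values, and 95% Wilson intervals cover counting error only.

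The rule, the loci and the gene lists were chosen with earlier results of these data known. Named genes are the hosts of the 12 highest loci, the 5 genes with most loci, the 3 longest loci, the 3 largest and 3 smallest differences between tags, the 2 highest loci of each list, the 3 loci closest to an empty vector peak, and the targets and controls of the study. Other genes named were chosen after their values were seen. A few genes that this rule selects are not reported here.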

Additional observations from a re-analysis of the deposited data

How the results depend on the processing

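Of 59 values recomputed under alternatives, 40 stayed inside the reported value's interval or, for numbers of loci, within 1.5 times it, and 19 moved. Merging peaks within 50 nt gave a median length of 110 nt. Requiring a log2 enrichment of at least 4 over both inputs left 76 loci, 12.8% of those over both inputs, with a median length of 90 nt. The medians were 4.51 (V5) and 4.52 (FLAG), so V5 was no longer above FLAG. The GU-loop:5nt-stem was in 40.8%, and 39.5% lay in 3′ UTRs, 25.0% in CDS and 5.26% in 5′ UTRs. Of these 76 loci, 52 were mRNA exon loci, against 1003 of 1052 without this limit, so the kinds of loci changed as well. When only empty vector peaks of at least 4 removed a locus, 2079 loci (77.2%) remained, with a median length of 113 nt, medians of 3.69 and 3.65, the motif in 59.1%, and 44.5% in CDS against 42.2% in 3′ UTRs, which turned the order of these regions. The number of loci thus rested on both limits, and most on that over input. Stricter pairing limits gave the motif in 13.1%, and folding without flanks in 49.1%. Leaving out loci on tRNA genes or like small or ribosomal RNA, an alternative chosen after seeing the data, gave 1028 loci with medians of 3.58 and 3.5 and moved no value outside these bounds. Of 18 gene list shares (of all EV-negative loci) recomputed with each host gene counted once, 17 stayed inside their interval, and that of tubulins and kinesins fell from 0.598% to 0.251%.

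No paired analysis was possible because each list holds 1 value per peak for both replicates, and no replicate was left out for the same reason. What read depth limits is unknown, since the lists hold no counts.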
